A study of Sus scrofa with 226 samples.

Results

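The genes described here are 6 sodium channel alpha subunit genes (SCN1A, SCN2A, SCN3A, SCN7A, SCN8A and SCN9A) and 3 intracellular fibroblast growth factor genes (FGF12, FGF13 and FGF14), chosen as a list by symbol from the 30420 genes of a single-neuron expression table. Of the 9, 8 had a pig gene identifier paired with their symbol; FGF13 was not analysed here. The cells were single neurons of wild-type pig (Sus scrofa) dorsal root ganglia of the cervical, thoracic and lumbar spine, cultured after dissociation, recorded by patch clamp and then taken up whole for Smart-Seq2 RNA sequencing. They came from 10 animals of 11, 12, 14, 15, 17, 18 or 20 weeks of age, and had spent 1 day (54.9% of cells), 2 days (34.5%) or 3 days (10.6%) in culture. No group was treated or carried a modified allele, and a comparison between ages is one between different animals. The study set out to find molecular markers of the C-fibre neurons that do not respond to mechanical stimuli.

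Sodium channel alpha subunits form the pore that carries the upstroke of the action potential, and sensory neurons express several of them at once. SCN9A is known for its role in human pain, SCN1A, SCN2A and SCN8A are known mainly from central and myelinated neurons, SCN3A from the developing or injured nervous system, and SCN7A encodes an atypical channel linked to sodium sensing. FGF12, FGF13 and FGF14 are not secreted like other growth factors but bind the tails of sodium channels and alter their inactivation.

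The label of the cells as neurons was checked against marker genes. The 9 neuronal genes measured were each at 10 CPM (estimated counts scaled to the cell's total) or more in 87.2% to 100% of cells, except RBFOX3 at 3.98%. Markers of glia were mixed. Of the Schwann cell genes, PRX and MAG reached that level in 0% of cells, MBP in 11.5%, EGR2 in 11.9%, GLDN in 40.7% and PMP22 in 93.8%; of 7 satellite glia genes, KCNJ10 reached it in 1.77%, APOE in 65.9% and ERBB3 in 97.8%. Whether the glial genes were read from the neurons or from attached cells was not tested. Totals ran from 109726 to 5506278 estimated counts per cell with a median of 740524, and the number of genes with a count above 0 from 3067 to 20588. No file named cell types, so the cells were sorted by 2 genes outside the list: OSMR, the oncostatin M receptor, and ADCYAP1, the neuropeptide PACAP, each at a threshold of 50 CPM. This gave 53 cells with OSMR alone (the OSMR gate), 62.4% of all cells with ADCYAP1 alone (the ADCYAP1 gate), 19 cells with neither and 13 with both. The gates are ranges of 2 genes and not cell types: 33 cells had OSMR and 17 had ADCYAP1 between 20 and 100 CPM.

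Reads of several members could not all be placed. Of the cells with a value above 0, the value was not a whole number in 82.2% for SCN1A, 66.7% for SCN2A, 69% for SCN3A, 59% for SCN9A and 56.1% for FGF12, the mark of reads divided between genes or transcripts. It was whole in every such cell for SCN7A, SCN8A and FGF14. Over all genes 52.1% of the values above 0 were not whole, so such values are not particular to these genes. Levels of SCN1A, SCN2A, SCN3A and SCN9A are therefore uncertain where one could have taken reads from another, and the summed level of these 4 genes is given with the relations to recorded parameters and with the gates. In the RefSeq table of Sscrofa11.1, SCN9A and SCN7A are neighbours. Smart-Seq2 does not mark the strand, so a gene and an antisense partner share their reads.

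Most neurons carried SCN9A and SCN7A together, and most of these cells carried SCN2A as well. A gene is called carried in a cell at 10 CPM or more; CPM values are not scaled to gene length, so shares of different genes are not ranked against each other. SCN9A was carried by 89.8% of cells, from 72.7% to 100% of the cells of an animal with a median of 92.9% over 10 animals. SCN7A was carried by 90.3% (72.7% to 100% per animal, median 89.3%). SCN2A was carried by 58.8% (45.5% to 76.9% per animal, median 61.3%). Every one of the 10 animals had cells carrying each of these 3 genes.

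SCN1A and SCN8A were each carried by a minority of cells and SCN3A by almost none. SCN1A was carried by 50 cells (22.1%; 0% to 40% per animal, median 21.7%) and SCN8A by 52 cells (23%; 0% to 38.5% per animal, median 24.9%). SCN3A was carried by 2 cells (0.885%) and was above 0 in 12.8% of cells; its highest value in any cell was 14.6 CPM. When every cell was thinned to 100000 counts, so that depth could not differ, the shares were 28.8% for SCN1A, 28.3% for SCN8A, 61.5% for SCN2A and 3.10% for SCN3A. At a threshold of 20 CPM they were 15.9% for SCN1A, 11.5% for SCN8A (26 cells), 47.3% for SCN2A and 0% for SCN3A. A level this low gives no firm order of cells for SCN3A, and it passed the expression filter of none of the tests as planned.

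FGF12 was carried by nearly all of these neurons and FGF14 by a minority. FGF12 was carried by 94.2% of cells (81.8% to 100% per animal, median 95.5%), with a median of 246 CPM and a highest value of 1954.5 CPM. FGF14 was carried by 79 cells (35%; 9.09% to 69.2% per animal, median 35%), and by 50 cells (22.1%) at a threshold of 20 CPM. All 79 cells carrying FGF14 also carried FGF12, 59.3% of cells carried FGF12 alone, and 13 cells carried neither. Among the cells without FGF14, 91.2% carried FGF12. Their levels had a mean within-animal Spearman rho of 0.00632 (SD 0.398, 10 animals), positive in 5 animals.

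The number of the 6 channel genes carried by a cell was 3 at the median. It was 3 in 87 cells, 2 in 57, 4 in 42, 5 in 18, 1 in 11 and 0 in 11 cells. The combination found most often was SCN2A with SCN7A and SCN9A, in 72 cells (31.9%) of 10 animals, followed by SCN7A with SCN9A in 48 cells (21.2%) of 10 animals. At a threshold of 20 CPM this order turned, with 72 cells for SCN7A with SCN9A and 67 for SCN2A with SCN7A and SCN9A. Adding SCN1A to the first gave 23 cells of 9 animals, adding SCN8A gave 14 cells of 7 animals, and adding both gave 17 cells of 8 animals. SCN7A, SCN8A and SCN9A without SCN2A were found in 13 cells of 7 animals.

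Of the 11 cells with none of the 6 genes, 6 lay in the group with neither marker, which had a median of 10476 genes detected and a mean log2(CPM + 1) over 9 neuronal genes of 7.52, against 13509 genes and 8.64 in the ADCYAP1 gate and 14369 genes and 8.76 in the OSMR gate. Without the 33 cells under 9000 genes, 2 cells carried none of the 6 and the combination of SCN2A, SCN7A and SCN9A made up 34.7% of cells. The part of RNA quality in the remaining differences between cells was not tested.

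**Figure D1:**
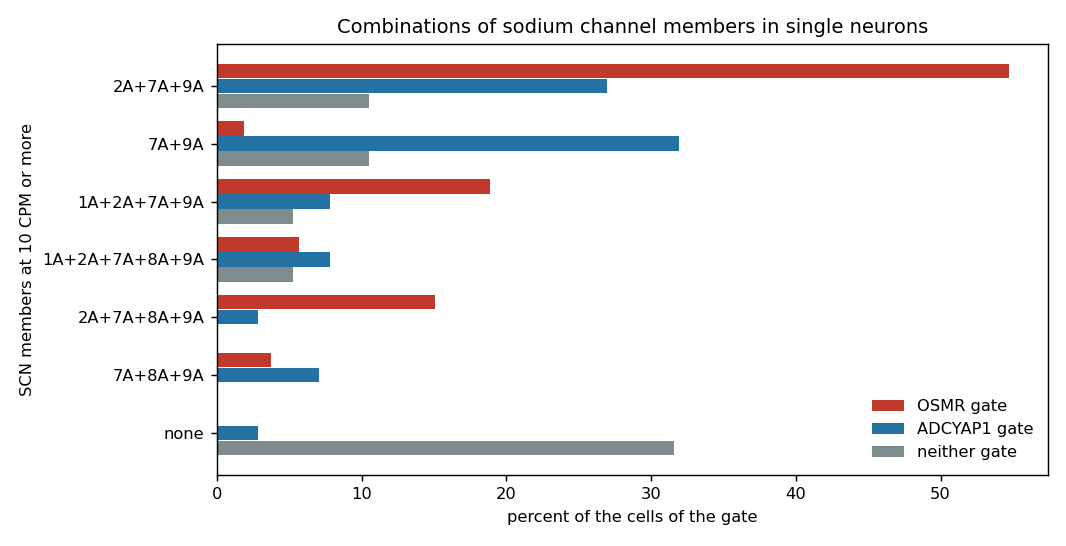
Share of the cells of each marker gate (horizontal axis, percent) that carried each of the 7 most frequent combinations of SCN members at 10 CPM or more (vertical axis, SCN prefix omitted). The OSMR gate (53 cells) is at 54.7% for 2A+7A+9A and 1.89% for 7A+9A, the ADCYAP1 gate at 27% and 31.9%, and the cells with neither marker (19) at 31.6% for none.

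The combinations differed in makeup between the gates. In the OSMR gate 29 of 53 cells (54.7%) carried SCN2A, SCN7A and SCN9A, and 1 cell (1.89%) carried SCN7A and SCN9A without SCN2A or another of the 6. In the ADCYAP1 gate these counts were 38 cells (27%) and 45 (31.9%). SCN2A was carried by 94.3% of the cells of the OSMR gate, 49.6% of those of the ADCYAP1 gate and 26.3% of those with neither marker. SCN7A and SCN9A were each carried by 100% of the OSMR gate, and by 92.2% and 90.8% of the ADCYAP1 gate. These shares count cells, which are not replicates; the test over animals follows.

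Within an animal, the levels of SCN7A, SCN9A and SCN2A varied together from cell to cell. The mean within-animal rho over 10 animals was 0.534 (SD 0.258) for SCN7A with SCN9A, 0.484 (SD 0.20) for SCN2A with SCN9A and 0.384 (SD 0.238) for SCN2A with SCN7A, each positive in 10 of 10 animals. Genes of 1 cell share its library and depth, and each of these genes also followed the number of genes detected, with mean rho of 0.239 for SCN7A, 0.277 for SCN2A and 0.339 for SCN9A. The values are given as a description. Without the cells under 9000 genes they were 0.544, 0.425 and 0.331 over 9 animals.

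Sorting the cells by gate changed these relations unequally. Within the ADCYAP1 gate (8 animals with at least 6 such cells) SCN7A with SCN9A stood at 0.444, positive in 8 of 8, SCN2A with SCN9A at 0.206 and SCN2A with SCN7A at 0.254, both positive in 6 of 8. Within the OSMR gate (5 animals) these pairs stood, in the same order, at 0.373 (4 of 5 positive), 0.425 (5 of 5) and 0.211 (3 of 5). The mean rho of SCN1A in all cells was 0.349 with FGF14 (9 of 10 animals positive), 0.299 with SCN8A (9 of 10) and 0.267 with SCN2A (10 of 10), against 0.137 with SCN9A (8 of 10). Its values with FGF14, SCN8A and SCN2A were 0.468, 0.338 and 0.417 within the ADCYAP1 gate. Within the OSMR gate they were 0.420, 0.0898 and -0.0690. Of the 50 cells carrying SCN1A, 60% carried FGF14 and 46% carried SCN8A, against 27.8% and 16.5% of the cells without it. SCN1A was also the member with the highest mean rho with the number of genes detected, at 0.386, and the part of detection in these pairs was not tested.

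**Figure D2:**
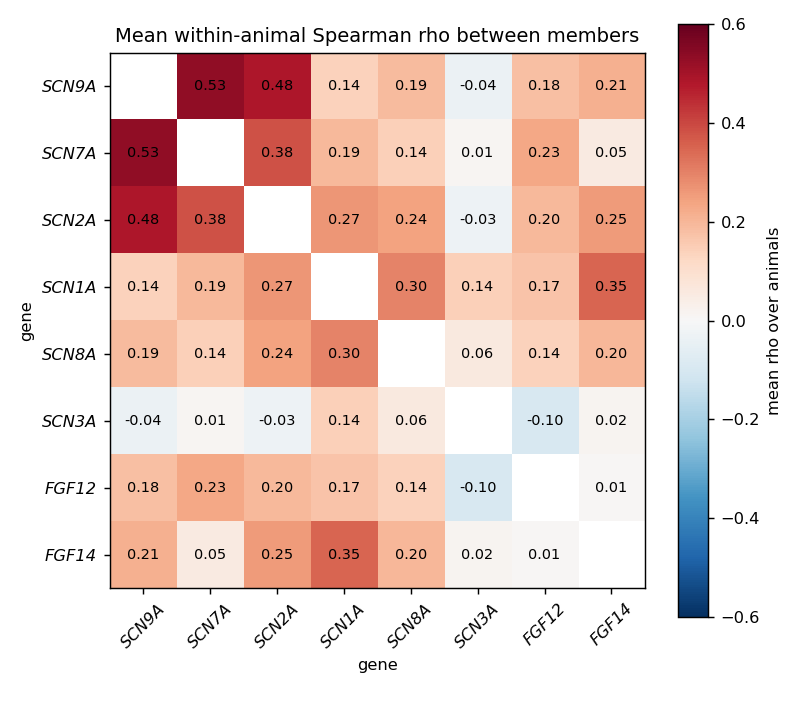
Mean over animals of the within-animal Spearman rho between each pair of the 8 members measured (both axes: genes; colour: mean rho). SCN9A, SCN7A and SCN2A form the block with the highest values, from 0.384 to 0.534, and the pair of FGF12 and FGF14 is at 0.00632.

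The genes whose levels followed each member most closely were found among 8481 genes with a symbol and a count above 0 in at least 50% of cells, by mean within-animal rho over 10 animals. For SCN9A they were FSTL1 (0.667), SCN11A (0.651), another sodium channel of small sensory neurons, and RET (0.612), a receptor for neurotrophic factors of the GDNF family, with a median over all genes of 0.133. For SCN2A they were CNTN1 (0.653), a cell adhesion molecule, JAK1 (0.611), a kinase of cytokine receptors, and CNTNAP4 (0.602). For SCN7A they were SCN9A itself (0.534), OPRM1 (0.531), the mu opioid receptor, and CLGN (0.493). These genes were positive in 10 of 10 animals. They were picked by the highest mean rho in these same animals, so their signs add no separate evidence. The 95th percentile over all genes was 0.362 for SCN9A, 0.368 for SCN2A and 0.293 for SCN7A.

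The other members had less close companions. SCN1A was followed by MAP2K6 (0.497), TTYH2 (0.449) and NR2F2 (0.446), a transcription factor, SCN8A by CSDC2 (0.427), SMYD2 (0.405) and LYRM7 (0.404), and FGF14 by PDE4D (0.455), a phosphodiesterase of cyclic AMP, GRIA3 (0.454), a glutamate receptor subunit, and DHDH (0.444). FGF12 was followed by ADCY3 (0.444), an adenylyl cyclase, NDUFB10 (0.441), a subunit of respiratory complex I, and SNAP25 (0.441), a synaptic vesicle fusion protein, against a median over all genes of 0.0156. For SCN3A the closest was STIM1 (0.317, 9 animals), a rank among values that are mostly 0.

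SCN2A and SCN9A stood higher in the OSMR gate than in the ADCYAP1 gate, but no member passed the test fitted over all 3 gates. Counts were summed per animal and gate (at least 2 cells) and tested by edgeR's quasi-likelihood method, each animal being a block. The sums of the OSMR gate had 673015 to 23078900 counts, those of the ADCYAP1 gate 2762870 to 45525000 and those with neither marker 867568 to 7038780. Of 18663 genes, 0.589% were called higher and 0.814% lower in the OSMR than in the ADCYAP1 gate at a Benjamini-Hochberg adjusted p under 0.05, and 0 of the 7 members tested were among them. In this fit 1453 genes had an unadjusted p under 0.05, and DESeq2 on the same sums called 691 genes, with SCN2A as the 1 member among them.

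SCN2A, per summed sample on the log2 CPM scale with a prior count of 2, ran from 5.60 through a median of 6.31 to 7.58 in 8 OSMR-gate sums, and from 3.18 through 4.01 to 5.92 in 10 ADCYAP1-gate sums. The groups overlapped only through the highest ADCYAP1-gate sum, and SCN2A was higher in the OSMR gate in 8 of the 8 animals with both. The log2 fold change was 1.83 (SE 0.607, edgeR adjusted p = 0.207). The SD of the sums was 0.628 in the OSMR gate, 0.768 in the ADCYAP1 gate and 2.85 in the 6 sums with neither marker, and the fit shares 1 spread between them. When only the OSMR and ADCYAP1 gates entered the fit, an alternative chosen after seeing the data, SCN2A was 2.08 (SE 0.265) higher with an edgeR adjusted p of 6.68e-05, and leaving out animal 3 from the fit of all gates gave 2.01 with an adjusted p of 0.00867.

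SCN9A ran from 7.74 through 8.35 to 8.86 in the OSMR-gate sums and from 6.70 through 7.11 to 8.22 in the ADCYAP1-gate sums. The groups overlapped, and SCN9A was higher in the OSMR gate in 7 of 8 animals. The log2 fold change was 0.81 (SE 0.550, edgeR adjusted p = 0.893) with all gates and 1.07 (SE 0.181, adjusted p = 0.000917) with the OSMR and ADCYAP1 gates alone. The summed level of SCN1A, SCN2A, SCN3A and SCN9A, as an animal mean of log2(CPM + 1), was 8.52 (SD 0.232, 8 animals) in the OSMR gate and 6.95 (SD 0.669, 10 animals) in the ADCYAP1 gate. The fit with those gates alone called 1736 genes, 4.35% of all tested higher and 5.48% lower, so 2 members called of 7 is to be read against those shares.

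The remaining members differed less between these gates. SCN7A ran from 8.08 through 8.32 to 8.88 in the OSMR gate and from 7.51 through 7.91 to 8.76 in the ADCYAP1 gate, overlapping, with 7 of 8 animals higher and an adjusted p of 1.00 in edgeR; with the 2 gates alone its log2 fold change was 0.41 (adjusted p = 0.0758). SCN8A had a log2 fold change of 0.66 (SE 0.707) and SCN1A of -0.68 (SE 1.03), neither called. FGF12 and FGF14 had log2 fold changes of -0.22 (SE 0.625) and -0.29 (SE 0.578), and with the 2 gates alone of -0.01 (SE 0.197) and -0.19 (SE 0.293). Neither fit called an FGF member.

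**Figure D3:**
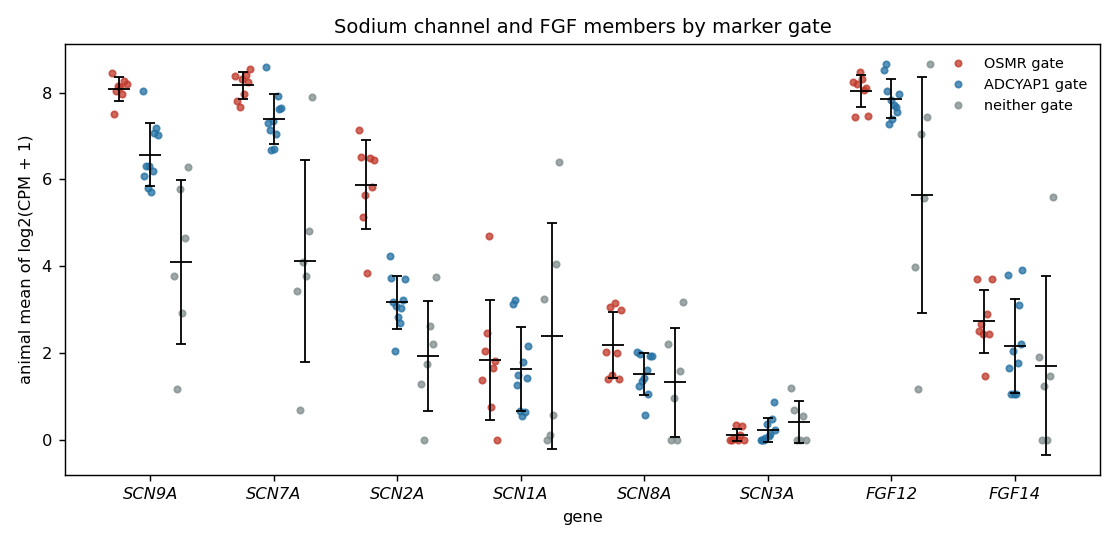
Animal mean of log2(CPM + 1) over cells (vertical axis) for each member (horizontal axis) in the 3 gates, 1 point per animal with at least 2 such cells, with mean and SD over animals in black. SCN2A has a mean of 5.88 in the OSMR gate (8 animals), 3.17 in the ADCYAP1 gate (10) and 1.93 with neither marker (6), while FGF12 is at 8.04 and 7.86 in the first 2.

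The gates also differed in other measures. The OSMR-gate cells had a median diameter of 43.5 against 33.9 in the ADCYAP1 gate (no unit stated), and their mean log2(CPM + 1) over 6 fibroblast genes had a median of 1.37 (0 to 4.21) against 0.626 (0 to 3.66), with 5 and 6 of the 6 genes at a median of 0. Over 9 macrophage genes the medians were 0.852 (0.215 to 5.82) and 1.08 (0 to 7.83), with 6 of the 9 genes at a median of 0 in both. Over 7 satellite glia genes they were 2.30 (0.799 to 6.39) and 2.14 (0.319 to 6.80). Without the 61 cells with a macrophage or satellite glia mean of at least 4, an alternative chosen after seeing the data, the log2 fold changes between these gates were 2.27 (SE 0.755, edgeR adjusted p = 0.217) for SCN2A and 1.14 (SE 0.655, adjusted p = 0.804) for SCN9A, and 0 members were called. The part of the fibroblast genes was not tested.

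The cells with neither marker stood lower for SCN7A and SCN9A than the gated cells, again short of the threshold. Against these 19 cells, 1.69% of 18663 genes were called higher and 0.375% lower in the OSMR gate, and 3.67% higher and 0.386% lower in the ADCYAP1 gate; 0 of 7 members were called in either by edgeR, with 3767 and 4314 genes at an unadjusted p under 0.05. DESeq2 called SCN2A, SCN7A and SCN9A higher in the OSMR gate and SCN7A and SCN9A higher in the ADCYAP1 gate. It called 2948 of 18918 genes and 4013 of 19499 genes in these comparisons, many more than edgeR. SCN9A ran from 0.29 through 5.46 to 7.38 in 6 sums with neither marker, all below the OSMR-gate sums, and was 2.43 (SE 0.670, edgeR adjusted p = 0.0550) higher in the OSMR gate. SCN7A was 1.78 (SE 0.686, edgeR adjusted p = 0.153) higher there, and its groups did not overlap either. The same held for SCN2A, 1.85 (SE 0.686, edgeR adjusted p = 0.139) higher in the OSMR gate. The share of all genes without overlap was not determined. The lowest SCN9A sum with neither marker, of 2 cells of animal 3, held 1 count of SCN9A in 867568. Without that animal SCN9A was 2.10 higher in the OSMR gate with an edgeR adjusted p of 0.0332. Without animal 10 it was 2.74 higher with 0.0497. Over all genes tested the median fold changes (log2) were 0.24 and 0.37.

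The recordings were compared with the members through 5 deposited parameters. By their names these are the threshold, duration and steepest slope of the action potential (AP_threshhold, APD and max_slope_smth) and a response at 50 and at 100 Hz (X50Hz and X100Hz); no units or definitions came with the table. APD ran from 0.678 to 9.13 with a median of 3.01. X50Hz held whole numbers from 0 to 20 with a median of 10 and X100Hz the same range with a median of 6, and 32.4% of cells were at the ceiling of 20 for X50Hz. For each animal the Spearman rho of each gene with each parameter was computed over its cells, and limma tested the mean over 10 animals across 19740 genes. The correlations over cells share library and depth, and the animals are the replicates.

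Cells with more SCN9A, SCN2A and SCN7A had lower X50Hz. Of all genes tested, 5.71% were called with a negative and 1.49% with a positive rho with X50Hz, and 3 of the 7 members tested were called, all negative. SCN9A had a rho below 0 in 10 of 10 animals, from -0.587 through a median of -0.437 to -0.0467, with a weighted mean of -0.375 (limma adjusted p = 1.41e-05). SCN2A was likewise below 0 in 10 of 10 animals, from -0.485 through -0.393 to -0.0139, with a weighted mean of -0.350 (adjusted p = 6.02e-05). SCN7A was below 0 in 7 of 10, from -0.531 through -0.258 to 0.348, with a weighted mean of -0.240 (adjusted p = 0.0165); without animal 9 it was -0.180 with an adjusted p of 0.126, and without animal 4 or 7 the call was lost as well, at 0.0722 and 0.0599.

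For SCN1A, SCN8A, FGF12 and FGF14 no relation to X50Hz was called. Their weighted mean rho was -0.0293, -0.150, -0.0324 and -0.150, with FGF14 below 0 in 9 of 10 animals (adjusted p = 0.215). An exact test that flips the signs of the 10 animals' values (two-sided) called 0 of 19740 genes for X50Hz, with 3270 at an unadjusted p under 0.05; SCN2A and SCN9A reached 0.00195, the smallest p that 10 animals allow, and an adjusted p of 0.0737. The summed level of SCN1A, SCN2A, SCN3A and SCN9A, which does not depend on how reads were divided among them, had a mean rho of -0.385 (SD 0.202) with X50Hz, below 0 in 9 of 10 animals.

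At 100 Hz the relation was called for SCN9A and SCN2A. Here 3.7% of genes were called negative and 0.598% positive, and 2 of 7 members were called, both negative. SCN9A was below 0 in 10 of 10 animals, from -0.673 through -0.427 to -0.0196, with a weighted mean of -0.367 (limma adjusted p = 4.62e-05). SCN2A was below 0 in 9 of 10, from -0.476 through -0.190 to 0.113, with a weighted mean of -0.226 (adjusted p = 0.0342), and this call was lost when animal 1, 4, 5, 7, 9 or 10 was left out, with adjusted p from 0.0538 to 0.129. SCN7A was at -0.188 (adjusted p = 0.109), while SCN1A was at 0.0350. The summed level of SCN1A, SCN2A, SCN3A and SCN9A had a mean rho of -0.343 (SD 0.266), below 0 in 9 of 10 animals. The exact sign-flip test called 0 of 19740 genes, with 2809 at an unadjusted p under 0.05.

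APD was higher in cells with more SCN9A and SCN2A. Of all genes, 2.3% were called positive and 2.02% negative, and 2 of 7 members were called, both positive. SCN9A was above 0 in 9 of 10 animals, from -0.0150 through 0.381 to 0.514, with a weighted mean of 0.346 (limma adjusted p = 0.000288). SCN2A was above 0 in 7 of 10, from -0.371 through 0.294 to 0.588, with a weighted mean of 0.296 (adjusted p = 0.00391). SCN7A was at 0.214 (adjusted p = 0.0597) and above 0 in 8 of 10. The summed level of the 4 genes had a mean rho of 0.271 (SD 0.268), above 0 in 8 of 10 animals. The exact sign-flip test called 0 of 19740 genes, with 2547 at an unadjusted p under 0.05.

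SCN1A pointed the other way for APD without passing the test. Its rho was below 0 in 8 of 10 animals, from -0.672 through -0.247 to 0.26, with a weighted mean of -0.174 (limma adjusted p = 0.168); with Pearson's r of log2(CPM + 1) the value was -0.254 (adjusted p = 0.0206), and without animal 4 it was -0.256 (adjusted p = 0.0432). In values of APD, the 50 cells carrying SCN1A ran from 0.678 through a median of 2.45 to 6.24 and the cells without it from 1.22 through 3.15 to 9.13. The median of the carrying cells was lower in all 8 animals with at least 2 cells of each kind. Within the ADCYAP1 gate the medians were 2.01 (26 cells with it) and 2.78 (those without), lower with SCN1A in 6 of 7 animals. Within the OSMR gate they were 4.30 (13 cells with it) and 4.17 (40 without), lower with SCN1A in 2 of 3 animals. These medians over cells are a description.

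**Figure D4:**
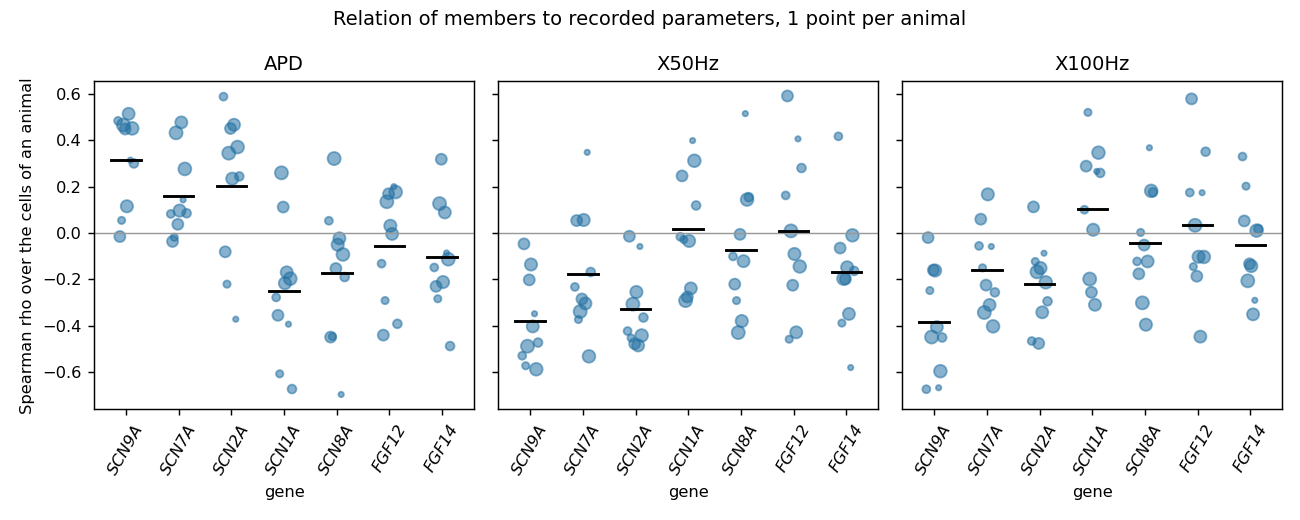
Spearman rho over the cells of an animal (vertical axis) between each member (horizontal axis) and APD, X50Hz or X100Hz, 1 point per animal with its size in proportion to the number of cells; the black line is the unweighted mean over 10 animals. For SCN9A the mean is 0.313 with APD, -0.378 with X50Hz and -0.383 with X100Hz, and for SCN1A -0.251, 0.0191 and 0.103.

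The threshold and the slope of the action potential had no relation to a member that passed the test. For AP_threshhold 0% of genes were called positive and 0% negative by limma, with 1022 at an unadjusted p under 0.05 and 0 called by the exact sign-flip test; the lowest member was SCN1A at a weighted mean of -0.198 (adjusted p = 0.777), below 0 in 7 of 10 animals. In values of AP_threshhold, the cells carrying SCN1A had a median of -45.6 and the others of -42.5, lower with SCN1A in 7 of 8 animals. In the ADCYAP1 gate the medians were -52.5 and -41.6, lower in 7 of 7 animals, and in the OSMR gate -43.7 and -44.5, lower in 2 of 3; these medians over cells were not tested. For max_slope_smth 0% were called positive and 0% negative, with 2320 at an unadjusted p under 0.05 and 0 by the exact sign-flip test. SCN7A had the highest value there, 0.178 (adjusted p = 0.328), above 0 in 7 of 10 animals.

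The gates differed in the recordings. X50Hz had a median of 3 in the OSMR gate and 16 in the ADCYAP1 gate, X100Hz of 2 and 7, and APD of 4.17 and 2.75. Outside the OSMR gate (8 animals with at least 6 such cells) none of the relations was called. There the mean rho of SCN9A was -0.0423 (SD 0.195) with X50Hz, -0.0455 (SD 0.129) with X100Hz and 0.0611 (SD 0.261) with APD. That of SCN2A was -0.0554 (SD 0.261), 0.111 (SD 0.299) and -0.117 (SD 0.433), and the limma fit of these cells called 0 genes for X50Hz, 0 for X100Hz and 2 for APD, neither of them a member. The summed level of SCN1A, SCN2A, SCN3A and SCN9A had a mean rho there of -0.0571 (SD 0.189), 0.0389 (SD 0.196) and -0.0810 (SD 0.359).

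**Figure D5:**
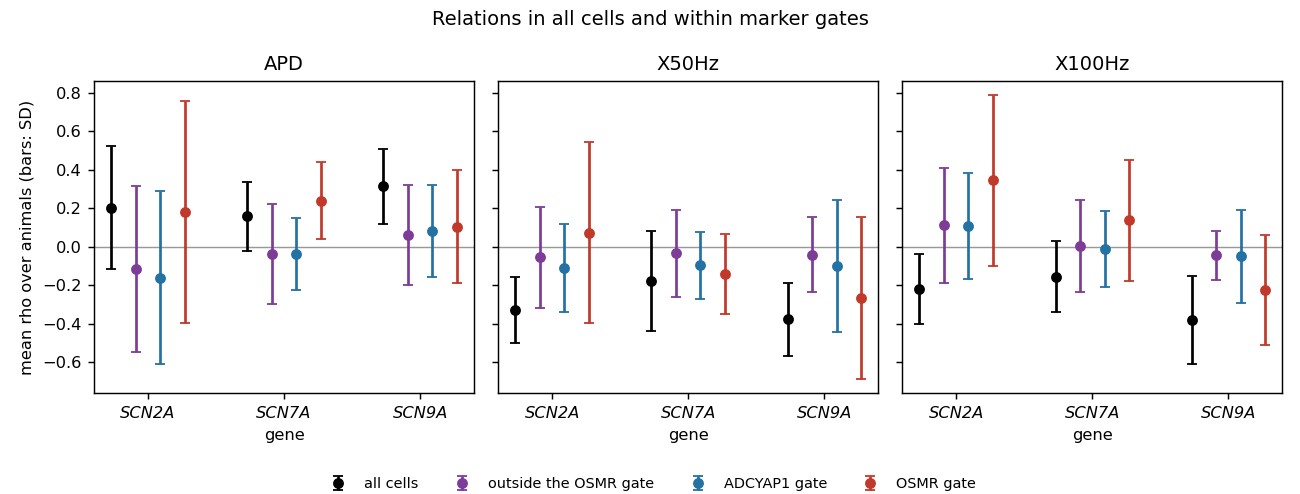
Mean within-animal rho (vertical axis; bars are the SD over animals) of SCN2A, SCN7A and SCN9A with APD, X50Hz and X100Hz in all cells (10 animals), outside the OSMR gate (8), in the ADCYAP1 gate (8) and in the OSMR gate (5). Outside the OSMR gate the SD bars of all 9 relations include 0. In all cells those of SCN2A and SCN9A with X50Hz and X100Hz, and of SCN9A with APD, do not. The bars show the spread over animals and are no test.

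Within the OSMR gate itself, 5 animals had at least 6 cells, 42 cells in all. SCN9A had a mean rho of -0.266 (SD 0.421) with X50Hz, below 0 in 4 of 5 animals, and SCN8A of -0.400 (SD 0.293), below 0 in 5 of 5. SCN2A was at 0.0723 (SD 0.471). These values of 5 animals are given without a test. Cell diameter moved with SCN2A (mean rho 0.256, above 0 in 9 of 10 animals) and SCN9A (0.20). With the ranks of diameter removed, SCN9A kept its calls for APD (0.284, limma adjusted p = 0.0199), X50Hz (-0.307, 0.00560) and X100Hz (-0.284, 0.0452), and SCN2A lost all 3 (0.238, -0.231 and -0.066).

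In recorded values, the combinations differed as follows. The 72 cells with SCN2A, SCN7A and SCN9A had a median X50Hz of 7 and a median APD of 3.40, and the 48 cells with SCN7A and SCN9A alone of 12 and 2.79. The 14 cells with SCN2A, SCN7A, SCN8A and SCN9A had the lowest median X50Hz of the combinations with at least 10 cells, 2, and an APD of 3.54. The 17 cells that also carried SCN1A were at 11 and 2.31. All these ranges overlapped, and the OSMR gate made up 8 of the 14 and 3 of the 17 cells.

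Within the ADCYAP1 gate, cells with and without SCN2A can be compared at like numbers. X50Hz ran from 1 through a median of 11 to 20 in 70 cells carrying SCN2A and from 1 through 19 to 20 in 70 cells without it. The median was lower with SCN2A in 6 animals and higher in 2, and animals with equal medians were not counted. APD had medians of 2.73 and 2.75. For FGF14 in the same gate the median X50Hz was 11 in 43 carrying cells and 19 in 97 others, and 27.9% against 49.5% of cells were at 20. The median was lower with FGF14 in 6 animals and higher in 2, with equal medians again not counted. These differences between cells were not tested, and the rho of SCN2A with X50Hz in this gate averaged -0.110 (SD 0.228).

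Days in culture and age moved no member past the threshold. For 2 days against 1 day 0% of 20267 genes were called higher and 0% lower by edgeR (755 at an unadjusted p under 0.05; 70 called by DESeq2, 0 of them members). For 3 days against 1 day 0.00493% were called higher and 0% lower (2572 at an unadjusted p under 0.05; 750 by DESeq2, 0 of them members). FGF12 had the largest difference relative to its error at 3 days: its sums ran from 8.59 through 8.94 to 9.20 in 3 animals and from 7.63 through 8.12 to 9.05 in 9 animals at 1 day, overlapping, 0.69 (SE 0.261) higher with an edgeR adjusted p of 0.312, and higher in 3 of 3 animals. SCN9A had a log2 fold change of -0.48 (SE 0.244, edgeR adjusted p = 0.426) at 3 days and was lower in 3 of 3 animals.

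Over age at 1 day in culture, 0% of 19731 genes were called with a rising and 0% with a falling slope by edgeR (1224 at an unadjusted p under 0.05; 56 by DESeq2, 0 of them members). The slopes of the 7 members ran from -0.18 log2 per week for SCN2A (SE 0.0751, adjusted p = 0.768) to -0.05 for SCN9A (SE 0.0571). All 7 slopes were below 0, and the median slope of all genes was -0.00476. The slopes come from the same 9 animals and are not independent of each other. Depth also ran with age. Over all cells of an animal, the median total was 934596 to 2370770 counts at 11 to 14 weeks. At 15 to 20 weeks it was 419349 to 660552. The part of depth in the slopes was not tested. Animal 1, of 11 weeks, had the highest FGF14 sum in this fit, 5.59 log2 CPM (next 3.93).

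Other genes of the sodium channel complex, a list of 25 with 21 measured and 19 tested, were read beside the members. For X50Hz 0 were called positive and 7 negative: SCN10A (-0.407) and SCN11A (-0.523), the channels resistant to tetrodotoxin of small sensory neurons, the adhesion and anchoring genes NRCAM (-0.391), CNTN1 (-0.338) and ANK2 (-0.328), the ubiquitin ligase NEDD4L (-0.218) and PRRT2 (-0.212); the list's median rho was -0.108 against -0.0268 over all genes. Of all genes, 5.71% were called negative and 1.49% positive for X50Hz. For X100Hz 5 of 19 were negative and 0 positive, against 3.7% and 0.598% of all genes. For APD 3 were positive (SCN10A, SCN11A and NRCAM) and 1, the calmodulin gene CALM3, negative, against 2.3% and 2.02% of all genes. The list's median rho with APD was 0.0508 against 0.0092 over all genes. Outside the OSMR gate limma called 0 of all genes for X50Hz, 0 for X100Hz and 2 for APD. In the OSMR against the ADCYAP1 gate 1 of 19 was called, SCN11A, 3.04 (SE 0.652) higher by edgeR with an adjusted p of 0.0134. Of all genes 0.589% were called higher and 0.814% lower there. For AP_threshhold, max_slope_smth, days and age 0 of the list were called. Against the cells with neither marker 4 were called higher in the OSMR gate (SCN10A, SCN11A, SCN2B and NRCAM) and 2 in the ADCYAP1 gate (SCN10A and SCN2B). Of all genes 1.69% and 3.67% were called higher in these comparisons.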

How the data were processed

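The authors deposited 1 table of estimated counts per gene for 226 cells and 1 cell table of other values (recorded parameters and the animal of each cell). Per the submitters' processing notes, bcl2fastq 2.20 was used; of the aligner, counter, build and annotation each is not given in the sources used here. Of the count values above 0, 52.1% were not whole; counts were rounded after summing over cells. The cell table holds 43 lines not used here, and 0 count columns were left out. Of the identifiers, 14867 had a symbol. Smart-Seq2 gives no molecular identifiers, so counts of reads are not independent molecules, and nothing says whether cells of an animal came from separate cultures.

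CPM was computed over each cell's total, with a pseudocount of 1 for log2 values. Relations to parameters used Spearman rho within each animal of at least 6 cells, Fisher's z, weights of cells minus 3, limma 3.58.1 under R 4.3.3, and genes above 0 in at least 20% of cells. Sums per animal and gate (at least 2 cells) or day (at least 3 cells) were tested with edgeR 4.0.16 (TMM, filterByExpr, quasi-likelihood), with the animal, named in the cell table, as a block; DESeq2 1.42.0 was an alternative. Cells with both markers entered no gate fit. P-values were Benjamini-Hochberg adjusted over all genes, with a threshold of 0.05. The fits of gates, days and X50Hz were tested on simulated data with known changes. Between the OSMR and ADCYAP1 gates 0% of 2-fold and 28% of 4-fold changes were recovered. For 2 days against 1 day 1% and 53% were recovered. For X50Hz 21% of genes with a rho of 0.2 and 99% with 0.4 were recovered. A member not called in the fits of gates or days may therefore still differ. The text names the 9 members, complex genes that were called, and the 3 genes most like each member. Members and lists were chosen with earlier results of these data known.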

Additional observations from a re-analysis of the deposited data

Results flagged for a closer look

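Among 98 sets of 4 to 10 animal values of the members examined for a value far from the rest, 5 held one, and chance alone marks about 1 in 20. Animal 1 had the highest mean log2(CPM + 1) of SCN2A, 5.45, with the next animal at 4.19. Animal 1 also had the highest sums of FGF14 at 1 day in culture, 5.56 log2 CPM in the fit of days (next 3.90) and 5.59 in the fit of age (next 3.93), which hold the same cells. Animal 10 had the highest share of cells carrying SCN3A, 6.25% (next 2.94%), a share that rests on a gene carried by 2 cells in all. The sum of animal 3 with neither marker was the lowest for SCN2A, -2.19 log2 CPM, with the next at 4.22; it holds 2 cells and 0 counts of SCN2A.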

How the results depend on the processing

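For relations to recorded parameters, the number of members called (2 for APD, 3 for X50Hz, 2 for X100Hz) fell to 0 for each with the exact sign-flip test and outside the OSMR gate, and to 1 for each with diameter removed. With cells of 1 day in culture alone it was 0 for APD, 1 for X50Hz and 0 for X100Hz. For X100Hz it was 1 with Pearson's r, with depth removed, without cells under 9000 genes and without cells high in macrophage or satellite glia genes, the last 2 chosen after seeing the data. Leaving out 1 animal gave 2 to 3 for APD, 2 to 3 for X50Hz and 1 to 3 for X100Hz. SCN2A turned sign outside the OSMR gate, to -0.0386 with APD and 0.0982 with X100Hz; the cause was not tested. For AP_threshhold and max_slope_smth every alternative run called 0 members.

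Between gates, 0 members were called in the fit as planned. For the OSMR against the ADCYAP1 gate DESeq2, no replicate block and leaving out cells under 9000 genes each called 1 member. The fit of those gates alone called 2. Over all genes these runs called 691, 325, 714 and 1736. Against cells with neither marker, DESeq2 called 3 members (OSMR) and 2 (ADCYAP1), and no replicate block 2 (OSMR). RLE size factors and no filter each called 1 (OSMR), and marker thresholds of 20 CPM 1 for each gate. For the OSMR gate these runs called 2948, 2723, 398, 841 and 1510 genes in all. For the ADCYAP1 gate DESeq2 called 4013 and the thresholds of 20 CPM 2243. With 1 day in culture alone 6 members were called for each gate, where 5704 (OSMR) and 5964 (ADCYAP1) of 19921 genes were called in all. The 6 are to be read against those counts. SCN1A turned from -0.59 to 8.71 in the OSMR gate with 1 day alone, and the cause was not tested. The group with neither marker was small at 1 day, where 1 cell made up 12.5% of it. Over all genes DESeq2 called 691, 2948 and 4013 in the 3 contrasts of gates where edgeR called 262, 386 and 756, and 70, 750 and 56 for 2 days, 3 days and age where edgeR called 0, 1 and 0. Leaving out 1 animal gave 0 to 1 for both OSMR comparisons and 0 to 0 for the other. The numbers in the sample titles differ for every cell and pair nothing. Without the replicate block the fits of days called 0 members, and for age no paired analysis was possible because each animal has 1 age. For days and age every alternative run called 0 members. The share of the combination of SCN2A, SCN7A and SCN9A ran from 26.1% to 34.7% over its alternatives. At a threshold of 20 CPM it was 29.6%, below the 31.9% of SCN7A with SCN9A. SCN1A was above 0 in 44.7% of cells, SCN3A in 12.8%, SCN8A in 49.6% and FGF14 in 52.2%; in the other cells a low level of them was not detectable at this depth.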
